A study of Homo sapiens with 6 samples.

Results

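The genes for the subunits of RNA polymerases I, II and III and of Mediator were described in MDA-MB-231, an established human triple-negative breast cancer cell line of mesenchymal appearance. Members were the genes of the deposited table whose symbols begin POLR1, POLR2 or POLR3, or MED followed by a number, and are otherwise built like a subunit name. The rule took 61 of 15917 listed genes, which were 5 with POLR1 symbols, 16 with POLR2 symbols, 10 with POLR3 symbols and 30 Mediator genes. The study depleted RBMS3, an RNA-binding protein, to ask which transcripts depend on it. Total RNA of luciferase-labelled cells was sequenced in 6 libraries. A control hairpin was carried in 2 libraries, shCTRL, and the hairpins shRBMS3-B3 and shRBMS3-C3, both against RBMS3, had 2 libraries each. All the cells carried a lentiviral pLKO.1-Puro hairpin and had been selected with puromycin, so no group was free of virus or drug. The hairpins lower a transcript without deleting its gene, and all groups came from 1 cell line.

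The table gives 1 level per gene, the authors' mean of normalized counts over libraries, with no value for a single library. Every level in this text is that mean, which has no SD and no n, and the libraries that entered it are not stated. No difference between knockdown and control was therefore computed, the depth of RBMS3 loss in each library could not be checked, and the sequencing depth is unknown. The listed means ran from 26.7 to 859682, with a median of 364 over all genes and of 526 over the 12408 protein-coding genes. RBMS3 itself was listed at 272, the 43.3 percentile of the table. If knockdown libraries entered the mean, that value is not the RBMS3 level of control cells. All 7 of 7 markers of the line were listed, from CAV1 at 4947 to VIM at 69335, while the hormone receptor genes ESR1 and PGR, the basal keratin KRT5, the leukocyte genes PTPRC and CD3E and the fibroblast gene DCN were not listed. Of the genes that should be low, CDH1 was listed at 31.6, GATA3 at 171, ERBB3 at 265, PECAM1 at 69.0 and COL1A1 at 192.

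RNA polymerase I makes the precursor of the large ribosomal RNAs, polymerase II makes messenger RNAs and many noncoding RNAs, and polymerase III makes transfer RNAs and other small RNAs. Each has a pair of large catalytic subunits, a set of smaller subunits of its own, and several small subunits that it shares with the others. Mediator is a large complex that links DNA-bound activators to polymerase II. Its head and middle modules contact the polymerase, its tail module contacts activators, MED14 forms the scaffold that joins the modules, and a separable kinase module with CDK8 or CDK19 and cyclin C regulates that contact. The levels described here are those of the transcripts, not of the proteins or the assembled complexes.

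The polymerase genes sat high in the table. Of the 31 polymerase subunit genes, 27 (87.1%) lay above the median of all listed genes, against 60.3% of the listed protein-coding genes. Of the 30 Mediator genes, 21 (70.0%) did. Against the median of protein-coding genes, which parts those genes equally, the counts were 24 (77.4%) and 16 (53.3%). The Mediator share was thus near that of protein-coding genes at large. The median of the mean normalized counts was 902.6 for the polymerase subunits and 670.8 for Mediator. Long transcripts collect more reads, so levels of different genes were also divided by the length of 1 representative transcript per gene. On that scale the medians were 448 per kilobase for the polymerase subunits and 203 per kilobase for Mediator, beside 137 per kilobase over all listed genes.

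**Figure D1:**
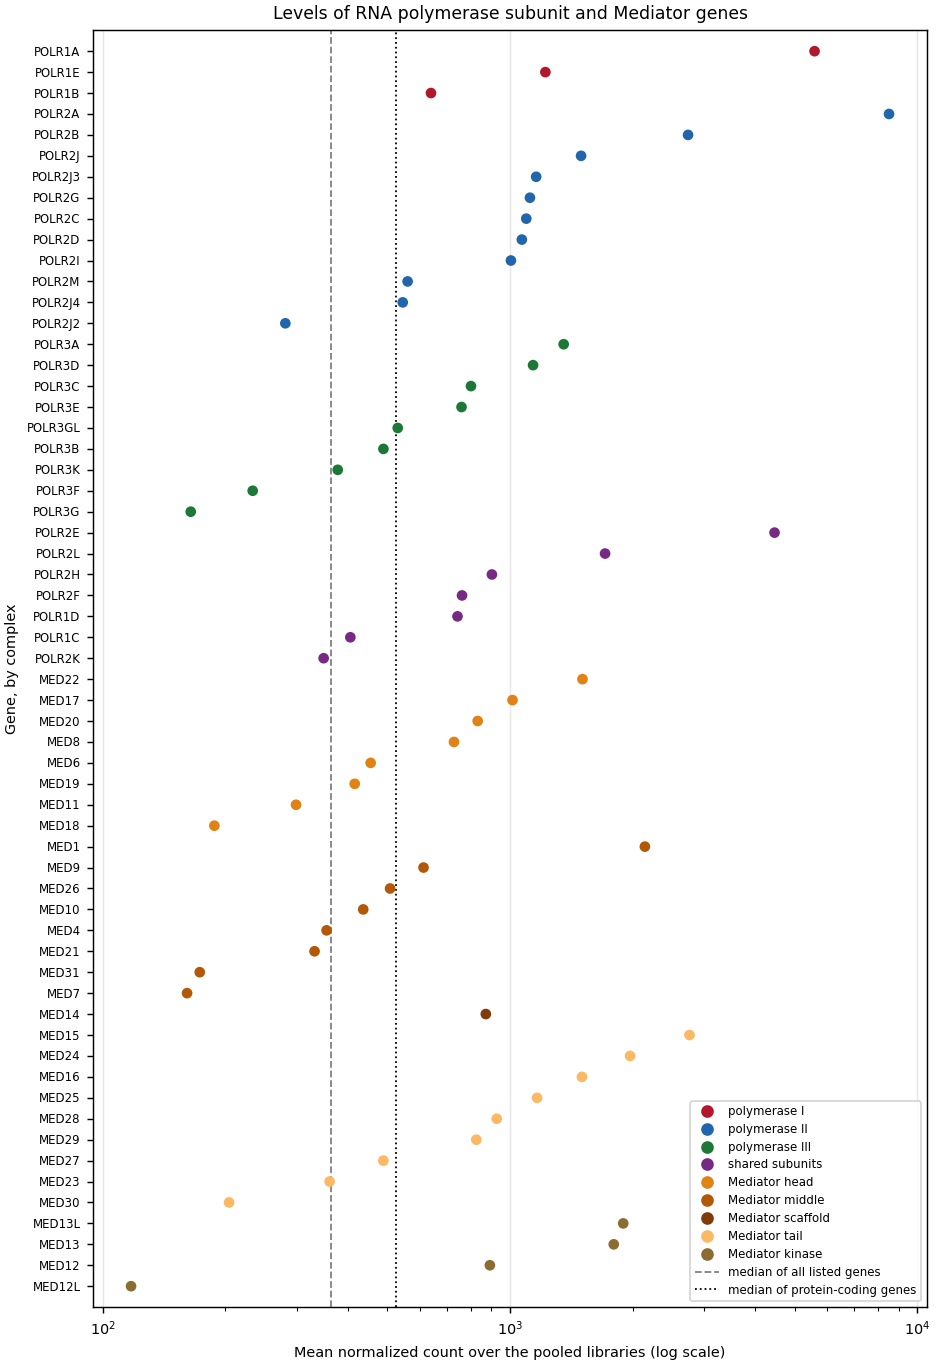
The mean normalized count of the members reported here over the pooled libraries (horizontal log scale), 1 point per gene, coloured by complex or Mediator module, with the medians of all listed genes (dashed) and of protein-coding genes (dotted). POLR2A, at 8517, and POLR1A, at 5591, lie farthest right, and MED12L, at 117.4, lies farthest left.

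The 3 genes of subunits specific to polymerase I that the rule took were POLR1A, POLR1B and POLR1E. POLR1A encodes the largest catalytic subunit and lies on chromosome 2 (86020216 to 86106155, minus strand, in the hg38 build). Its mean normalized count was 5591, the second highest of the 61 members. POLR1B, which encodes the other catalytic subunit and lies on the same chromosome (112541915 to 112579818), was listed at 639.6, and POLR1E, which encodes a subunit that works with the initiation machinery, at 1221. Per kilobase of the representative transcript the order changed, with POLR1E at 658, POLR1A at 448 and POLR1B at 85.0. Per kilobase of coding sequence the order was that of the mean counts, with POLR1A at 1084, POLR1E at 971 and POLR1B at 188. POLR1A thus exceeded its partner POLR1B by 8.74-fold in mean count and 5.27-fold per kilobase of the representative transcript. The genes of 3 further polymerase I subunits stood in the table under older names and were not taken by the rule. Of these, CD3EAP (now POLR1G) was listed at 1521 (539 per kilobase), TWISTNB (now POLR1F) at 506 (130 per kilobase) and ZNRD1 (now POLR1H) at 313 (368 per kilobase).

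The 11 polymerase II genes had a median of 1349 per kilobase (median mean count 1096), the highest group median per kilobase of the representative transcript. Per kilobase of coding sequence it was 1805, below the 2004 of the shared subunits. POLR2A encodes the largest subunit, whose C-terminal domain of repeated heptads is phosphorylated during transcription. It lies on chromosome 17 (7484366 to 7514616) and had a mean count of 8517 and 1349 per kilobase, the highest mean count of any member and the 98.1 percentile of all listed genes. POLR2B, which encodes the second catalytic subunit, was listed at 2735 (723 per kilobase). The 5 genes highest per kilobase were POLR2J3 at 2342, POLR2I at 2270, POLR2J4 at 1683, POLR2J at 1594 and POLR2G at 1415. The lowest were POLR2J2 at 567, POLR2D at 212 and POLR2M at 136. POLR2I encodes a small zinc-binding subunit, POLR2D and POLR2G the stalk that extends from the enzyme, and POLR2M a protein that associates with the enzyme and restrains it rather than a core subunit. POLR2C, which encodes a subunit of the assembly platform, had 621 per kilobase.

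The POLR2J family held the widest uncertainty of any member set. POLR2J encodes the subunit that pairs with POLR2C, and POLR2J2, POLR2J3 and POLR2J4 are near-identical copies of it, all on chromosome 7. Their mean counts were 1494 for POLR2J, 1159 for POLR2J3, 545.2 for POLR2J4 and 280.8 for POLR2J2. A further row without a gene name, RP11-514P8.12, is a second locus that GENCODE 44 also calls POLR2J3, and was listed at 276. The row named POLR2J4 carries an identifier that GENCODE 44 describes as an unnamed transcribed pseudogene, and the locus that GENCODE 44 calls POLR2J4 stood under RP5-1022I14.1 at 45.0. Of the coding bases of POLR2J2 (stop codon included), 321 of 348 (92.2%) were identical to those of POLR2J in an end-to-end alignment, as were 323 of 348 (92.8%) for POLR2J3, and 315 of the 324 bases of the POLR2J4 transcript (97.2%). POLR2J2 and POLR2J3 differed from each other at 2 of 348 coding bases.

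Stretches of coding sequence show where the copies part from POLR2J, which bears on how reads could be divided between them. Positions count from 1 at the start codon, sequences run 5′ to 3′ on the minus strand of chromosome 7, and capitals mark bases outside runs of at least 8 identical aligned bases. The first 3 sequences begin at base 31 and end at base 90 of POLR2J or base 87 of the copies.
POLR2J, start: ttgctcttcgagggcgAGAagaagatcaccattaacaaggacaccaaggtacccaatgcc
POLR2J2, start: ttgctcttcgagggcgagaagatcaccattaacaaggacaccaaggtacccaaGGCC
POLR2J3, start: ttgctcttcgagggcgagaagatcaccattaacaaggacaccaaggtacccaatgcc
POLR2J, end: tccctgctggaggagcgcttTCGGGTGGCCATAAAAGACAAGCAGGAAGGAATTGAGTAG
POLR2J2, end: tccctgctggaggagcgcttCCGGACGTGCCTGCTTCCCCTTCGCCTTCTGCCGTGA
POLR2J3, end: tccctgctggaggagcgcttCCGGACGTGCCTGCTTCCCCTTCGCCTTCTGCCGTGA
In this start window POLR2J held 3 bases that the copies lacked, and the coding sequences stayed nearly identical up to the last 40 bases of POLR2J, where both copies ended in a different shared sequence of 37 bases. The last 57 coding bases of POLR2J2 and POLR2J3 were the same.

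The sequence held in common was counted over the whole representative transcript, as the share of its 31-base words that also occur in an annotated transcript of another gene. That share was 100% for POLR2J2, POLR2J3 and POLR2J4 and 34.7% for POLR2J. A read that holds only such words may fit more than 1 gene, while a read or its mate that also holds other bases may still be told apart. How the authors' quantification divided such reads was not tested, so the separate levels of these 4 genes are uncertain. Without POLR2J2 to POLR2J4 the polymerase II median was 1108 in mean count and 1036 per kilobase, and without POLR2J as well it was 1096 and 723. The ratio of POLR2J3 to POLR2J2 was 4.13 per kilobase of the representative transcript and 1.84 per kilobase of the longest one. Among the other members, 26 had no such word in common with another gene and 42 of the 61 were below 5%. The members at 25% or more outside the POLR2J family were MED27 (46.9%, with a processed pseudogene), MED26 (44.2%), MED17 (44%), MED20 (32.2%), POLR2M (31.7%) and POLR3GL (25.9%). POLR2M overlaps GCOM1, a read-through gene that starts upstream and that was listed at 140. The genes that overlap MED26, MED17, MED20 and POLR3GL most were not listed in the table.

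**Figure D2:**
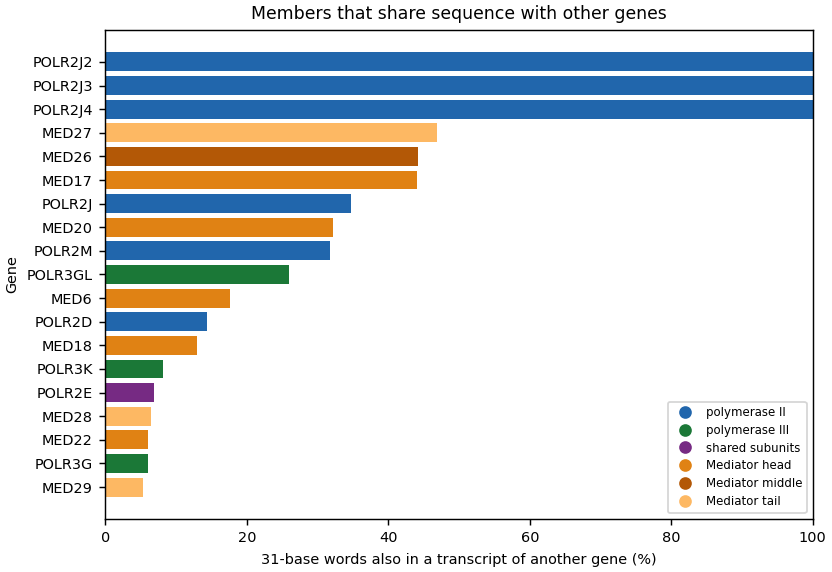
The share of 31-base words of a gene's representative transcript that also occur in a transcript of another annotated gene (horizontal axis, percent), 1 bar per gene, for the 19 members at 5% or more, coloured by complex or module. POLR2J2, POLR2J3 and POLR2J4 reach 100%, and the next bar is MED27 at 46.9%.

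The 10 polymerase III genes had lower levels than those of polymerase II, with a median mean count of 645.1 and 209 per kilobase. POLR3A and POLR3B encode the catalytic pair and were listed at 1354 (205 per kilobase) and 488.8 (117 per kilobase). Among the genes highest per kilobase were POLR3GL at 450, POLR3K at 275, POLR3D at 214 and POLR3C at 212. The lowest were POLR3B, POLR3F at 108 and POLR3G at 50.0. POLR3C and POLR3F, with the paralogs POLR3G and POLR3GL, encode the subcomplex that takes part in initiation, and POLR3K encodes a small subunit that takes part in termination. POLR3G is known as the isoform of stem cells and of many transformed cells, and POLR3GL as the widely expressed one. POLR3GL was listed at 530.0 and POLR3G at 164.5, so that POLR3GL was 3.22-fold higher in mean count. The ratio per kilobase depended on the length used. It was 9.0 with the representative transcript, 6.63 with the longest transcript and 3.3 with the coding sequence. CRCP, which encodes a further polymerase III subunit under a symbol of another form, was listed at 1200 (433 per kilobase).

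The catalytic pairs let the enzymes be set side by side. In mean count POLR2A was 1.52-fold higher than POLR1A and 6.29-fold higher than POLR3A. Per kilobase of the representative transcript those ratios were 3.01 and 6.59, and per kilobase of coding sequence 1.33 and 4.44. For the second catalytic subunits, POLR2B was 4.28-fold higher in mean count than POLR1B and 5.60-fold higher than POLR3B. Per kilobase of the representative transcript those ratios were 8.51 and 6.18, and per kilobase of coding sequence 4.13 and 5.40. In each enzyme the largest subunit had the higher length-scaled level, by 5.27-fold for polymerase I, 1.87-fold for polymerase II and 1.75-fold for polymerase III. The order of POLR1B and POLR3B depended on the scale, since POLR3B was 0.764 times POLR1B in mean count and 1.38 times POLR1B per kilobase. The error of these ratios is unknown, because the means carry no spread.

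The 7 subunits that more than 1 polymerase uses had a median of 499 per kilobase (median mean count 762.2). POLR1C and POLR1D encode the assembly platform that polymerases I and III have in common, and POLR2E, POLR2F, POLR2H, POLR2K and POLR2L encode small subunits found in all 3 enzymes. The highest were POLR2L at 1954 per kilobase, POLR2E at 1562 and POLR1D at 1072, followed by POLR2H at 499 and POLR2F at 368. POLR2K, at 368, and POLR1C, at 318, were the lowest. In mean count POLR2E had 4459, the third highest of all members, POLR2L had 1711, POLR2H had 902.6, POLR2F had 762.2, POLR1D had 743.0, POLR1C had 405.5 and POLR2K had 348.7. POLR2K was the only 1 of the 7 below the median of all listed genes. The POLR1D level rested on the transcript chosen, at 1072 per kilobase of the representative transcript and 162 per kilobase of the longest one. The ratio of POLR1D to POLR1C was accordingly 3.37 with the former length and 0.975 with the latter.

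**Figure D3:**
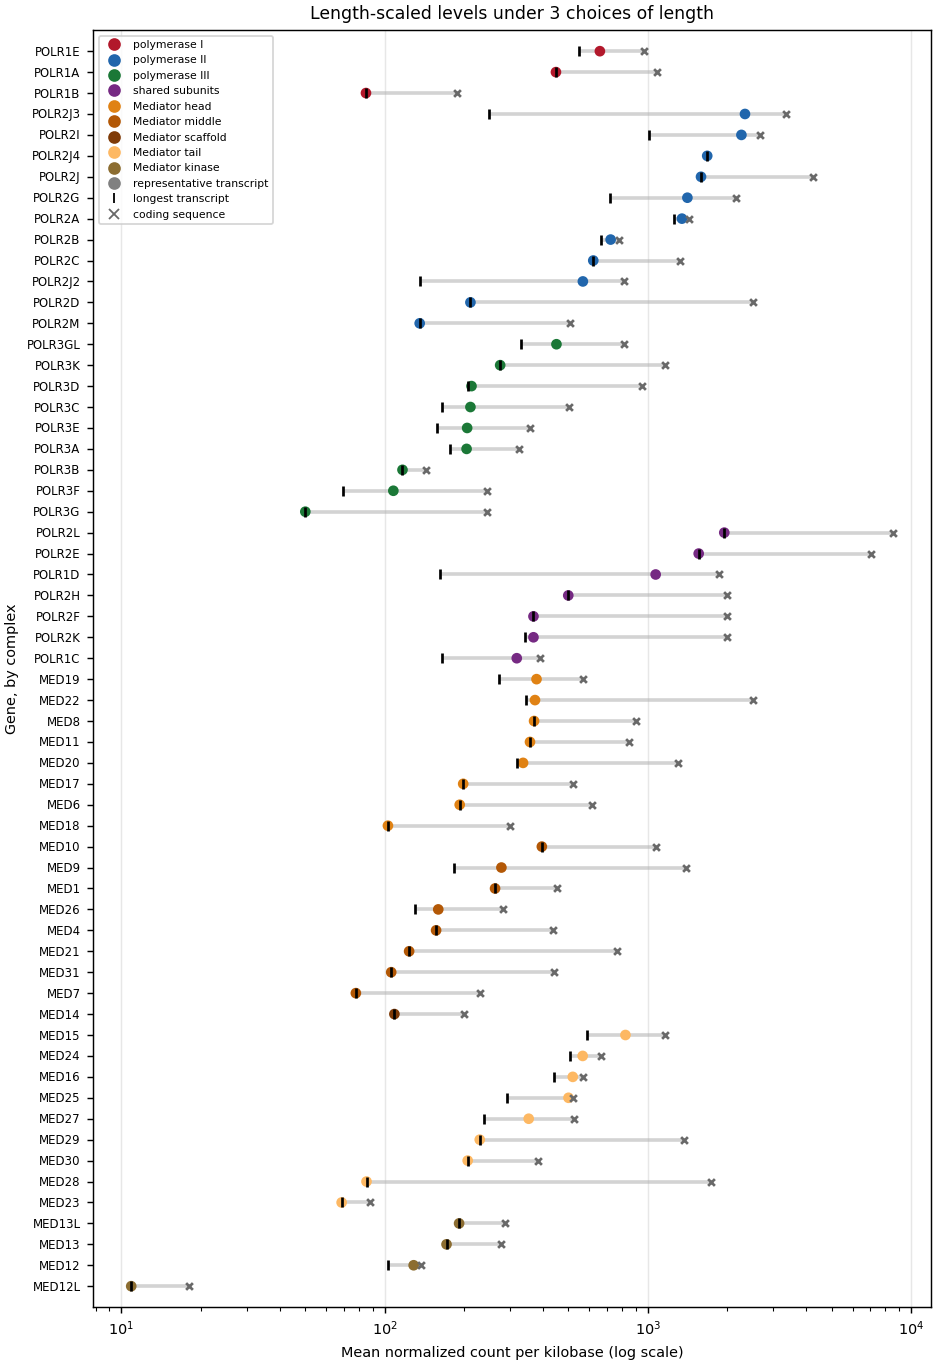
The mean normalized count per kilobase (horizontal log scale) of the members reported here under 3 choices of length, with a coloured point for the representative transcript, a tick for the longest transcript and a cross for the coding sequence. POLR2J3 moves from 2342 to 250 per kilobase and POLR1D from 1072 to 162 when the longest transcript is used, while MED12L stays lowest under each choice.

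The 9 tail genes of Mediator had a median of 353 per kilobase (median mean count 927.5), close to the 346 of the head. The order of these modules turned with the length used, at 570 for tail and 733 for head per kilobase of coding sequence, and 239 and 296 per kilobase of the longest transcript. MED15, whose product binds activators such as SREBP, lies on chromosome 22 (20495913 to 20587632). It had the highest mean count of any Mediator gene, 2757, and the highest level per kilobase of the representative transcript, 823. MED24 (566 per kilobase), MED16 (519), MED25 (500) and MED27 (353) followed in the tail. Per kilobase of coding sequence MED15 had 1166, below MED22 (2511), MED28 (1737), MED9 (1400), MED29 (1377) and MED20 (1309). The lowest tail genes were MED30 at 207, MED28 at 85.4 and MED23 at 68.7 per kilobase. MED24 and MED16 bind one another and MED23 in the tail, and MED25 is a target of viral and cellular activators. MED28 had a mean count of 927.5, which its long transcript turned into a low length-scaled level, and per kilobase of coding sequence it had 1737.

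The 8 head genes had a median of 346 per kilobase (median mean count 591.6). Per kilobase of the representative transcript they covered the narrowest range of the modules with more than 1 gene, 3.68-fold. The highest were MED19 at 378, MED22 at 373, MED8 at 370, MED11 at 357 and MED20 at 336, and the lowest were MED17 at 199, MED6 at 193 and MED18 at 103. MED17 encodes the central subunit of the head, and MED18 and MED20 form its movable jaw. In mean count the head genes ran from 188.0 for MED18 to 1506 for MED22.

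The 8 middle genes were lower, with a median of 159 per kilobase (median mean count 395.3). MED10 had 396, MED9 had 278, MED1 had 263, MED26 had 160 and MED4 had 157 per kilobase, and MED21, MED31 and MED7 were lowest at 124, 106 and 77.8. MED1 encodes the subunit through which nuclear receptors bind Mediator, and its mean count of 2143 was far above those of the other middle genes, of which the next was MED9 at 613.2. MED26 encodes a subunit that joins Mediator to elongation factors. MED7, MED21 and MED31 form the part of the middle that reaches the head. The scaffold gene MED14 had a mean count of 872.0 and 109 per kilobase.

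The 4 kinase module genes combined a high median mean count of 1345 with the lowest module median per kilobase apart from MED14, 150. MED13 and MED13L encode alternative subunits that tie the kinase to the rest of Mediator. They were listed at 1797 and 1896, or 172 and 192 per kilobase, a ratio of MED13L to MED13 of 1.12. MED12, which activates the kinase, was listed at 892.3 (129 per kilobase). Its paralog MED12L was listed at 117.4 (10.9 per kilobase), the lowest of the 61 members on both scales, and MED12 was 7.60-fold higher in mean count and 11.8-fold higher per kilobase. The kinases and the cyclin do not have MED symbols. CDK8 was listed at 273 (89.1 per kilobase), CDK19 at 311 (48.6 per kilobase) and CCNC, cyclin C, at 461 (214 per kilobase). Of the kinases, CDK19 was 1.14-fold higher in mean count and 0.545 times CDK8 per kilobase, so their order depended on the length used.

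The other factors that work with each polymerase were listed in full. The 15 of 15 general factors of polymerase II had a median of 583 in mean count and 254 per kilobase, from GTF2H5 at 31.7 to GTF2F1 at 1169 per kilobase. The 6 of 6 factors of polymerase I had medians of 459 and 172. Among them UBTF, which opens the ribosomal DNA, was listed at 3113, and RRN3, which brings polymerase I to its promoter, at 366. The 16 of 16 factors of polymerase III had medians of 1005 and 219. MAF1, the repressor of polymerase III, had 1565 per kilobase, and SNAPC3, at 63.0, was the lowest.

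Longer transcripts had higher mean counts and lower length-scaled levels among the members. Spearman's rho between transcript length and level over the 61 genes was 0.35 for the mean count and -0.54 per kilobase, beside 0.26 and -0.32 over the 15829 listed genes with an annotated transcript. Length enters the scaled level itself and genes are not independent replicates, so these values are a description.

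RBMS3 binds AU-rich sequence, and the study's methods search its CLIP-seq binding sites for a motif of 7 letters. Here the same motif was searched in annotated 3′UTRs. It consists of A, G or T, then A or T, then ATA, then A or T, then A. At least 1 match stood in the 3′UTR of 49 of the 59 members with an annotated 3′UTR (83.1%). The exact Clopper-Pearson 95% interval was 71.0 to 91.6 and covers counting error only. It treats the members as independent draws, though they are the full set and include near-identical copies. The share was 84.8% over the 12351 listed genes with a 3′UTR. By complex, 25 of 29 polymerase genes (86.2%) and 24 of 30 Mediator genes (80.0%) had a match. The density was 2.57 matches per kilobase of 3′UTR in the members and 2.79 in all these genes. The members thus carried at least 1 match about as often as listed genes at large. At least 3 matches stood in 44.1% of the members, beside 53.1% of those genes. A match is a description of the sequence and does not show that RBMS3 binds there.

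The members with the most matches had long 3′UTRs, but a long 3′UTR did not always hold many. POLR1A, with 7207 bases, had 5 matches, and POLR3D, with 4083 bases, had 2. MED28, with 10307 bases, had 27 matches, MED17 had 19, MED12L and MED14 had 17 each, POLR2M had 16 and MED13 and POLR1B had 13 each. The 10 members without a match were MED9, MED16, MED19, MED22, MED25, MED27, POLR2H, POLR2J2, POLR2J3 and POLR3K, of which MED22 had a 3′UTR of 3193 bases. POLR2A and POLR2J4 had no annotated 3′UTR in the representative transcript. The density was 4.86 matches per kilobase in the single scaffold gene MED14, 4.04 in the kinase module and 1.70 in polymerase I.

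The last 6 letters of the motif can read AATAAA, the main polyadenylation signal. In the paper, a motif search of the RBMS3 CLIP-seq sites also ranked AATAAA first in significance. Of the 261 matches in the members, 101 (38.7%) held the letters AATAAA, beside 36.0% over all these genes, and in 15 of the 49 members with a match (30.6%) every match did, beside 26.4% of all genes with a match. Sites of both kinds follow for some of the genes described, with the motif in capitals and 10 bases on each side, 5′ to 3′ on the gene's strand. They are the first match in the 3′UTR of each gene, in a set chosen after the values were seen.
POLR2I (chromosome 19, base 21 of 46): cccccgagtgTAATAAAcaccagattc
MED15 (chromosome 22, base 892 of 915): tctgtgattaTAATAAAtttattattc
POLR2B (chromosome 4, base 142 of 170): tttcttctgtAAATATAtaataaattt
POLR1A (chromosome 2, base 2921 of 7207): cattgagtaaGAATAAAaccgaggaag
MED17 (chromosome 11, base 158 of 2899): acttttcactTTATAAAtgacaagtgc
MED12L (chromosome 3, base 548 of 3849): cataagcactTTATAAActttgttctt
In POLR2I and MED15 every match held AATAAA, and the match shown for MED15 stood close to the end of the 3′UTR. The first matches of MED17 and MED12L read TTATAAA, which does not contain the signal.

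**Figure D4:**
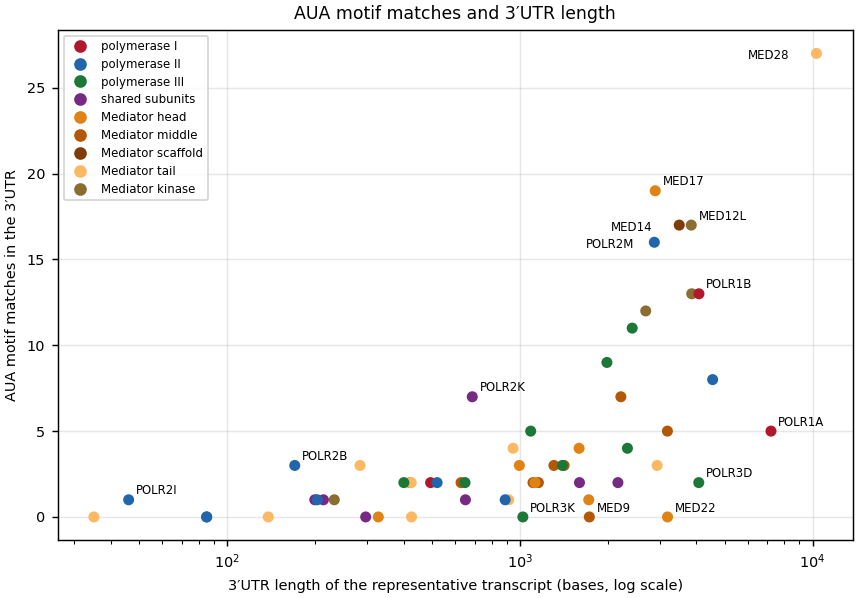
The number of motif matches in the 3′UTR (vertical axis) against the length of the 3′UTR of the representative transcript (horizontal log scale, bases), 1 point per gene, for the members reported here that have an annotated 3′UTR. MED28 has 27 matches at 10307 bases, whereas MED22 has none at 3193 bases.

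Promoter sequence was available for 43 members in RefSeq (GRCh38.p14), as 250 bases before to 50 after the start. The letters CCGGAAG, searched on both strands, stood in 16 of them (37.2%), beside 19.5% of the 9689 promoters of listed genes. The genes with more than 1 occurrence were POLR1C, MED15 and MED17. The letters TATAAA, searched on both strands and anywhere in the same window, stood in 3 (6.98%), beside 5.32%. These were MED7, MED16 and POLR2M. The median GC content was 60.0% in the members and 65.3% over the listed genes. Both motifs were chosen after levels had been seen, and no deposited value bears on these promoters.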

How the data were processed

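Total RNA was extracted with TRIzol, and libraries were made with the SMARTer stranded total RNA pico kit with removal of ribosomal cDNA and sequenced from paired ends. Per the labels, the submitters' processing notes name Salmon, DESeq2 and hg38, without versions, and the annotation is not given in the sources used here. The deposited table holds, per gene, a signal value that the authors computed as the mean of normalized counts over libraries. Its 5 other value columns hold the authors' own comparison (log2 fold change, standard error, statistic, p-value and adjusted p-value), and none of them was used. Because no count or value per library was used, the planned count test between knockdown and control was not run, and intervals cover counting error only.

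Genes were matched by the Ensembl identifier to GENCODE 44 (GRCh38), in which 15829 of the 15917 had a transcript. The mean was divided by the length of 1 representative transcript (MANE, otherwise Ensembl canonical, otherwise the longest coding). Whether the authors' counts were already corrected for length is not given in the sources used here. The AUA motif was searched in 3′UTRs without the stop codon, on the sense strand, words were 31 bases long and promoters came from RefSeq. Subunits were grouped by complex and Mediator module from general knowledge.

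The text names the catalytic and shared subunits, the 5 highest and 3 lowest genes of each group per kilobase, paralogs, RBMS3 and subunits under other symbols. A gene that the rule took is counted in the group values but is not reported here by itself. Members and lists were chosen with earlier results of these data known. Word sharing, the comparison of POLR2J copies, AATAAA overlap, promoter motifs and relations to length were added after values were seen. Python 3.11.15, pandas 2.3.3, numpy 2.4.6, SciPy 1.17.1, matplotlib 3.10.9 and Biopython 1.88 (pairwise alignment) were used, and 6 function checks were tested on simulated data.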

Additional observations from a re-analysis of the deposited data

How the results depend on the processing

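No paired analysis was possible because the table gives no value per library. For the same reason leaving out each replicate, DESeq2 size factors in place of TMM and a filter on low counts were not run, and the spread, depth and precision of the levels are unknown. Over 22 results, 45 alternatives were tried. Of these, 27 left a median within 1.5 times its reported value or a share within its 95% interval, and 18 did not. The 27 include the Mediator share above the median, 70.0% against all listed genes and 53.3% against protein-coding genes. Dividing by the length of the representative transcript took the median mean count to 448 for polymerase I, 209 for polymerase III, 499 for shared subunits, 203 for Mediator, 346 for head, 159 for middle, 353 for tail and 150 for kinase genes, since the unit itself changes. For polymerase II it took 1096 to 1349, which is counted among the 27. With a change of unit that result is no check either. Per kilobase of coding sequence the medians were 971 for polymerase I, 429 for polymerase III, 2004 for shared subunits, 522 for Mediator, 733 for head, 446 for middle and 570 for tail, because coding sequences are shorter than transcripts. Per kilobase of the longest transcript the polymerase II median fell to 666. With at least 3 matches required, 37.9% of polymerase and 50.0% of Mediator genes held the AUA motif, beside 53.1% of all listed genes with a 3′UTR. Leaving out POLR2J and its copies, or members below the median of listed genes, moved no median of mean counts by over 1.5 times. The latter choice selects on the level itself, so a median could only stay or rise, and it left out no polymerase I gene. Its results are counted among the 27 but are no check of those medians. Without POLR2J and its copies the polymerase II median per kilobase was 723, beside 1349 with them.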
